A study of Mus musculus with 27 samples.

Results

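The comparison described here pools the 9 mice given the 3 lowest doses of TCDD, a dioxin, and sets them against the 3 vehicle mice, which makes 12 of the 27 mice of the study. Members were chosen by the dose on the sample labels, namely 0.01, 0.03 or 0.1 µg/kg TCDD (3 mice each), or vehicle at dose 0. The ileal transcriptome was measured by RNA-Seq as raw read counts per gene. All 12 were male C57BL/6 mice without a transgene, gavaged with sesame oil alone or with TCDD in sesame oil every 4 d for 28 d, which gives 7 gavages from postnatal day 28, and they were fasted for 6 h before necropsy on postnatal day 56. The tissue was the epithelium scraped from the distal 10 cm of the ileum, so cells beneath the epithelium could be carried along. Mice were co-housed 4 per cage within their treatment group, so cage and dose cannot be told apart here. The cage of a mouse is not on its label, and mice of the same dose may have shared a cage.

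TCDD is a persistent ligand of the aryl hydrocarbon receptor (AhR), a transcription factor held in the cytosol by chaperones such as HSP90 and PTGES3. Once bound it enters the nucleus, pairs with ARNT and binds dioxin response elements before target genes such as Cyp1a1, Cyp1b1, Ahrr and Tiparp, the last 2 of which encode repressors of the receptor. The ileal epithelium is the site of bile acid and vitamin B12 uptake, and it is renewed from crypt stem cells into enterocytes, mucus-secreting goblet cells, antimicrobial Paneth cells, hormone cells and tuft cells. The question for these doses was whether any gene left the range of the vehicle mice, and what that range was.

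The promoters of 4 genes on which the results turn are shown, each as the 250 bases before the start site (RefSeq, GRCm38.p6), 5′ to 3′ on the strand of the gene. Cyp1a1 and Ahrr stand for the AhR response, and the capitals mark GCGTG, the core of the dioxin response element. Per3 stands for a clock response seen in 1 mouse, and the capitals mark TTATGTAA, the D-box bound by DBP, TEF and HLF. Lct, which encodes lactase, stands for the genes that varied most between mice, and the capitals mark AGATAA, a motif bound by GATA factors, or its reverse complement TTATCT.
Cyp1a1 (chr9:57697363-57697612, + strand): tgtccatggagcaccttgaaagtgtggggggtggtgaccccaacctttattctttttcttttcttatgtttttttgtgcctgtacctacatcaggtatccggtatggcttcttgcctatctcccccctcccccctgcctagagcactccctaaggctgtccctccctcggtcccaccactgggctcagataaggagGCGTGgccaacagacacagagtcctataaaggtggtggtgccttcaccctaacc
Ahrr (chr13:74292332-74292581, − strand): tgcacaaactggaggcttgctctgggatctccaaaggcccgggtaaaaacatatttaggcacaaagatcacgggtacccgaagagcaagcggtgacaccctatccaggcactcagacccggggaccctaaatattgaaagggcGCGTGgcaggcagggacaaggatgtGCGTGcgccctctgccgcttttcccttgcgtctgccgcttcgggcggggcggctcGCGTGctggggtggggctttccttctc
Per3 (chr4:151044666-151044915, − strand): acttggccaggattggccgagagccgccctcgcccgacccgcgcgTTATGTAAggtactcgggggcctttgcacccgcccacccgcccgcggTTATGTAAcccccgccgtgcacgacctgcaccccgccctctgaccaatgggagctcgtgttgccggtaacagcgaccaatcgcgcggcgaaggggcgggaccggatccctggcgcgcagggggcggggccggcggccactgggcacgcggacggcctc
Lct (chr1:128328319-128328568, − strand): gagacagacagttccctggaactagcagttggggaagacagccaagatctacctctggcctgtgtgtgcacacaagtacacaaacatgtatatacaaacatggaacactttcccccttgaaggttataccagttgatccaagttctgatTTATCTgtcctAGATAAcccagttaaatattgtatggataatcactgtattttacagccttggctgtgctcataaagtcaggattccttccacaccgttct

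In these windows Cyp1a1 held 1 GCGTG, whose first base lies 54 bases before the start site, and Ahrr held 3, at 107, 82 and 27 bases. Per3 held 2 TTATGTAA, at 205 and 158 bases, and Lct held the GATA motif at 101 bases on the other strand and at 90 bases on the same strand. Searched on both strands, GCGTG was present in 28.2% of the 32851 promoter windows of this length, AGATAA in 9.99% and TTATGTAA in 0.819%. A match describes these letters only, and binding was not measured in these samples.

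Between 12.26 and 14.98 M reads were counted on genes per mouse, and 44.48% to 47.77% of uniquely mapped reads fell on no annotated gene. Of 46078 genes in the tables, 28777 had at least 1 count in the 12 mice, and 15897 passed a filter on low counts and were tested. The labelled tissue was checked against its markers. All 14 epithelial structure genes were tested, and their summed level lay between 15170 and 18180 counts per M counted reads (CPM) in the 12 mice. Of 8 exocrine pancreas genes 4 were at 0 in all 12 mice, but Cela1 had 15 to 38 reads per mouse. That list summed to 1.38 to 2.84 CPM. Albumin, the defining hepatocyte transcript, never exceeded 0.0841 CPM, but Ttr of the hepatocyte list had 6 to 21 reads per mouse. The hepatocyte list summed to 0.673 to 1.70 CPM. Smooth muscle genes summed to 30.7 to 246 CPM and 6 adipocyte genes to 0.21 to 33.6 CPM, and their part in the results was not tested.

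No gene was differentially expressed in the pooled comparison. With edgeR's quasi-likelihood test, 0 of 15897 genes (0%) had a Benjamini-Hochberg adjusted p of at most 0.05 together with a 1.5-fold change, and the smallest adjusted p was 0.1001. At an unadjusted p under 0.05 there were 1193 genes (7.50%), of which 539 (3.39%) were higher and 654 (4.11%) lower with TCDD. The median log2 fold change over all genes was 0.0067. With DESeq2 at its defaults, which replace outlying counts in a group of 9 mice, 11 genes passed. Of these, Fhdc1, Errfi1, Pfkfb3, Mid1, Trim15, Areg, Hk2, Arhgef10l, Card14 and Tifa were lower and Nr1d1 was higher. In contrast, limma on quantile-normalized values gave 0. Leaving out the first mouse at 0.01 µg/kg gave 9 calls with edgeR and leaving out the third gave 5, so the count of 0 holds for the full set of mice and not for every subset of it.

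The data bounded the size of most changes. The 95% interval of the pooled fold change lay within 1.5-fold in either direction for 10619 genes (66.8% of those tested) and within 2-fold for 13904 (87.5%). The median half-width of that interval was 0.273 on the log2 scale, or 1.21-fold. By contrast, 431 genes had an estimate at least 1.5-fold higher and 174 at least 1.5-fold lower, and none of these passed the test. All 9 low-dose mice lay above the 3 vehicle mice for 88 genes (0.554%) and below them for 154 (0.969%).

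Cyp1a1, the cytochrome P450 that is the usual reporter of AhR activity, stayed at the edge of detection. Its read counts were 3, 0 and 2 in the vehicle mice. At 0.01 µg/kg they were 7, 1 and 0, at 0.03 µg/kg 1, 1 and 2, and at 0.1 µg/kg 1, 7 and 5. The groups overlapped, with 6 low-dose mice inside the vehicle range and 3 above it. In all, 25 reads fell on Cyp1a1 among 121.0 M in the low-dose mice against 5 among 41.6 M in the vehicle mice, a ratio of rates of 1.72 with an exact 95% interval of 0.646 to 5.75 that covers counting error only. A count of 0 allows up to 3 reads, or 0.2003 to 0.2447 CPM at these depths. The gene failed the filter on low counts, and an exact two-sided permutation test over the 220 splits of the 12 mice gave p = 0.564 for its log2 CPM. At higher doses the reads numbered 4, 0 and 14 at 0.3 µg/kg and 59, 61 and 103 at 1 µg/kg, and they numbered 14821 to 27996 at 30 µg/kg.

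**Figure D1:**
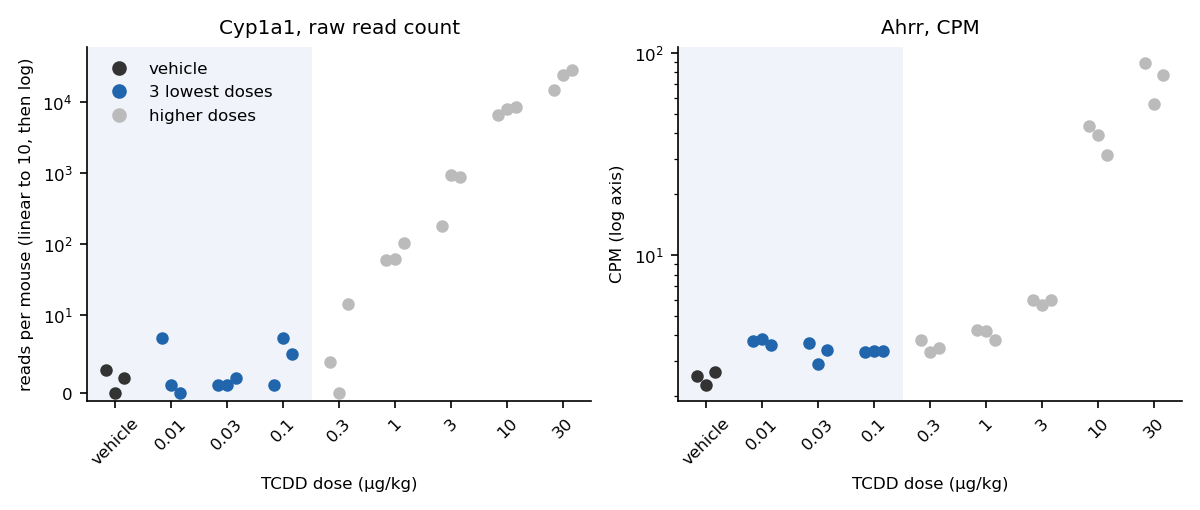
Raw reads of Cyp1a1 (left; axis linear to 10, then logarithmic) and CPM of Ahrr (right; log axis, normalized over 27 mice) for each mouse by TCDD dose in µg/kg, 3 mice per dose, with vehicle and the 3 lowest doses on the shaded ground. Cyp1a1 stays between 0 and 7 reads in the 12 shaded mice, and Ahrr lies between 2.27 and 2.63 CPM in the vehicle mice and between 2.90 and 3.84 CPM in the 9 low-dose mice.

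Ahrr, the repressor that AhR itself induces, was the 1 of 7 tested AhR targets whose low-dose mice all lay above the vehicle mice. Among all tested genes 88 (0.554%) did so. Vehicle mice had 2.58, 2.31 and 2.68 CPM, and the 9 low-dose mice ranged from 2.97 to 3.90 CPM with a median of 3.47. In raw reads that is 31 to 38 against 38 to 53, so the groups separated in CPM and met at 38 in reads. The log2 fold change was 0.48 (SE 0.15), with an edgeR p of 0.00494 that did not survive adjustment (adjusted p = 0.489). The exact two-sided permutation p of 0.00455 is the smallest that 220 splits allow. It reflects the same separation of the groups and is no second line of support. Each dose had a similar estimate, 0.58 at 0.01 µg/kg, 0.42 at 0.03 µg/kg and 0.42 at 0.1 µg/kg. Leaving out 1 mouse at a time kept it between 0.42 and 0.52. All 15 mice at the higher doses also lay above the 3 vehicle mice, 9 of them (0.3 to 3 µg/kg) between 3.30 and 6.01 CPM when all 27 mice were normalized together. Every one of these comparisons rests on the same 3 vehicle mice.

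The other AhR targets overlapped between the groups. Of 10 targets on the list 7 passed the filter, and Ahrr was the only one with an unadjusted p under 0.05, where 3.39% of all genes were higher at that level. The median log2 fold change of the 7 was 0.01, beside 0.0067 for all genes. Cyp1b1, a P450 that metabolizes estrogens and procarcinogens, had 2.44, 1.27 and 1.13 CPM in the vehicle mice and 1.12 to 3.24 CPM (median 1.98) at the low doses, a log2 fold change of 0.44 (SE 0.32, adjusted p = 0.80). Its estimate moved from 0.24 to 0.87 as single mice were left out, the highest value arising without vehicle replicate 1. Tiparp, a mono-ADP-ribosyltransferase that curbs AhR, was at 42.7, 35.6 and 41.6 CPM in vehicle mice and 25.2 to 44.5 CPM (median 34.5) at the low doses, a log2 fold change of -0.21 (SE 0.12, adjusted p = 0.746).

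Nqo1, a quinone reductase shared by AhR and NRF2, had a log2 fold change of -0.15 (adjusted p = 0.79), with 17.1, 18.9 and 19.0 CPM in the vehicle mice and an overlapping 13.0 to 18.3 CPM at the low doses. Xdh, xanthine dehydrogenase, was the most abundant target at 252 ± 10.7 transcripts per M (TPM; SD, n = 3 vehicle mice), and its log2 fold change was 0.01 with a 95% interval of -0.23 to 0.25. The glucuronosyltransferase first exons Ugt1a6a and Ugt1a6b gave 0.06 and -0.36, and since they share their downstream exons with the rest of the Ugt1a locus their counts are uncertain. Cyp1a2 had no read in any of the 12 mice and Aldh3a1 at most 0.158 CPM.

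The receptor and its partners were present at steady levels. Ahr itself had 20.7, 18.6 and 16.8 CPM in the vehicle mice and 14.8 to 22.5 CPM at the low doses, a log2 fold change of 0.01. Arnt gave 0.11, Hsp90aa1 0.10, Hsp90ab1 0.12 and Ptges3 -0.01, and all 6 members were tested with no p under 0.05. Per length, Hsp90ab1 stood highest in vehicle mice at 535 ± 18.9 TPM, ahead of Ptges3 at 114 ± 7.20, Arnt at 23.7 ± 2.16 and Ahr at 9.45 ± 1.09 TPM (SD, n = 3). The 20 xenobiotic metabolism genes had 0 members with a p under 0.05 in either direction and a median log2 fold change of -0.07.

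By the rule for named genes, the 6 genes of smallest p in each direction are described, none of which passed. The 6 lower genes were Fhdc1, Pfkfb3, Nfxl1, Hk2, Errfi1 and Mid1, with adjusted p from 0.1001 to 0.1972 and estimates 1.27- to 2.24-fold below vehicle. Each estimate was negative at all 3 doses, and for 5 of them the 9 low-dose mice did not overlap the vehicle mice. The genes were picked for the smallest p in these same mice, and each dose was read against the same 3 vehicle mice, so sign and separation here, and in the 6 higher genes, follow largely from the choice and are no independent support.

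Pfkfb3 (chr2:11471433-11554077, − strand), the kinase that makes fructose 2,6-bisphosphate and thereby drives glycolysis, had the largest estimate of the 6. Vehicle mice had 247, 223 and 241 CPM, and the low-dose mice ranged from 63.1 to 158 CPM with a median of 112. The highest low-dose mouse was 0.01 µg/kg replicate 1, and no mouse of the 9 reached the vehicle range. The log2 fold change was -1.16 (SE 0.19, 95% interval -1.56 to -0.77), with an edgeR adjusted p of 0.1001. Without 0.01 µg/kg replicate 1 it was -1.26 with an edgeR adjusted p of 0.0233. Over all fits with 1 mouse left out, its adjusted p reached 0.861.

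Hk2 (chr6:82725025-82774454, − strand), hexokinase 2, acts upstream of it in the same pathway. Vehicle mice had 387, 341 and 555 CPM, and the low-dose mice 134 to 289 CPM (median 204), again without overlap. Its log2 fold change was -1.03 (SE 0.19, adjusted p = 0.1775). Vehicle replicate 3 was the highest of the 12 mice for Hk2, and leaving 1 mouse out moved the estimate between -1.17 and -0.80. Without 0.01 µg/kg replicate 1 its adjusted p was 0.0419, and with another mouse left out it reached 0.9998.

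Fhdc1 (chr3:84442198-84480429, − strand), a formin that links actin and microtubules, had the smallest p. Its vehicle values were 45.1, 38.8 and 54.95 CPM, and the low-dose mice lay at 18.0 to 32.8 CPM (median 24.1), all below them. The log2 fold change was -0.86 (SE 0.14, edgeR adjusted p = 0.1001), and the adjusted p was 0.0419 without 0.01 µg/kg replicate 1. It passed as well when 0.01 µg/kg replicate 3 or 0.03 µg/kg replicate 3 was left out. With another mouse left out its adjusted p reached 0.9998. Nfxl1, a zinc finger protein, had the smallest estimate of the 6 and the smallest spread between mice, with 46.5, 47.3 and 47.5 CPM in vehicle mice and 34.0 to 40.7 CPM at the low doses.

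Errfi1, the feedback inhibitor of the EGF receptor, had 109, 76.6 and 122 CPM in the vehicle mice and 35.2 to 77.1 CPM (median 52.2) at the low doses, with 1 low-dose mouse, 0.01 µg/kg replicate 3, just inside the vehicle range. Without that mouse its adjusted p was 0.0354. Mid1, a microtubule-bound ubiquitin ligase, had 22.9, 29.9 and 27.2 CPM against 13.8 to 21.8 CPM, and an adjusted p of 0.0419 without 0.01 µg/kg replicate 1. For Errfi1 and Mid1 alike, the adjusted p reached 0.9998 with another mouse left out. Several genes near these in rank were named after their values were seen. Areg, the EGF receptor ligand amphiregulin, had 18.2, 21.7 and 19.4 CPM in vehicle mice and 5.67 to 13.9 CPM at the low doses. Tat, tyrosine aminotransferase, had 75.4, 64.3 and 78.8 CPM against 13.8 to 55.4 CPM, and Hif1a, the hypoxia-inducible subunit, 94.3, 84.7 and 107 CPM against 51.8 to 81.2 CPM. Their adjusted p was 0.1972 in each case.

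**Figure D2:**
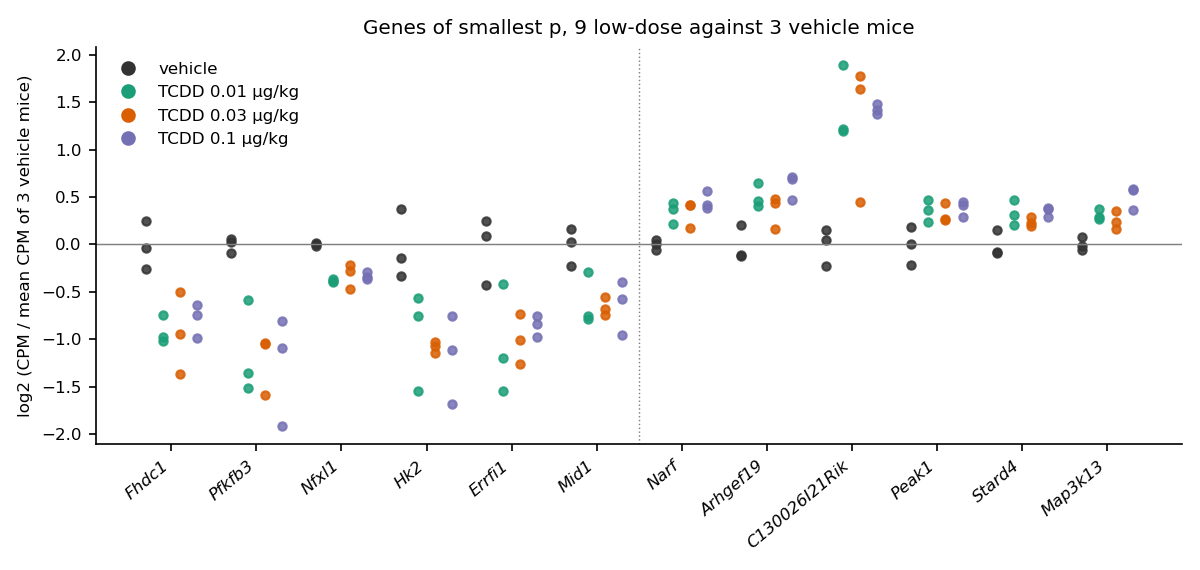
Log2 of CPM over the mean CPM of the 3 vehicle mice for the 6 lower (left of the dotted line) and 6 higher genes of smallest p, 1 point per mouse, coloured by vehicle or TCDD dose in µg/kg. For 10 of the 12 genes the 9 low-dose points do not overlap the 3 vehicle points.

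Of the 6 higher genes, 5 were free of overlap and all had the same direction at the 3 doses, with adjusted p from 0.1972 to 0.2676 and estimates 1.24- to 2.68-fold above vehicle. Narf (chr11:121237253-121255856, + strand), a nuclear protein that binds prelamin A, had 32.1, 34.5 and 33.6 CPM in vehicle mice and 37.7 to 49.2 CPM (median 44.5) at the low doses. Map3k13, a kinase of the JNK pathway, had 61.7, 58.1 and 56.2 CPM against 65.8 to 88.0 CPM. Stard4, a carrier of cholesterol between membranes, had 257, 303 and 258 CPM against 313 to 377 CPM, and Peak1, a pseudokinase of the cytoskeleton, 81.5, 92.2 and 70.1 CPM against 95.8 to 113 CPM.

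Arhgef19, a guanine nucleotide exchange factor, overlapped by 1 mouse, with 31.4, 39.1 and 31.3 CPM in vehicle mice and 38.0 to 55.7 CPM at the low doses. C130026I21Rik (chr1:84992690-85270566, − strand), whose function is not described here, had the largest estimate, 1.42 on the log2 scale, at the lowest level, 0.495 to 0.645 CPM in vehicle mice and 0.791 to 2.15 CPM at the low doses. None of these 6 genes passed when any 1 mouse was left out.

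The same vehicle mice also stood apart from the 15 mice at 0.3 to 30 µg/kg for several of these genes. With all 27 mice normalized together, Pfkfb3 was at 219.5 to 242 CPM in vehicle mice and at 45.01 to 204 CPM in the 15 higher-dose mice, all of them below. The 15 higher-dose mice lay below the vehicle mice for Nfxl1, Mid1 and Tat too, and above them for Narf, Arhgef19 and Map3k13. Fhdc1 overlapped, with 10 of 15 below and 2 above the vehicle range, as did Errfi1 with 10 below and 2 above. So did Hk2 with 14 below, Peak1 with 12 above, Stard4 with 13 above, and C130026I21Rik with 10 above and 2 below. The share of all genes that separate in this way was not counted. Neither set of TCDD mice is independent of the other here, since both are read against the same 3 animals, and what is particular to those animals cannot be told apart from dose.

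Gene lists had small medians. Median log2 fold changes of lists stood between -0.20 and 0.39 except for smooth muscle at 0.70, beside 0.0067 over all genes tested. The bile acid and FXR list had 3 of 8 tested members lower at an unadjusted p under 0.05, where 4.11% of all genes were. These were Fgf15, the ileal hormone that restrains bile acid synthesis, at -0.41 (adjusted p = 0.536), Nr1h4, which encodes FXR, at -0.26 (adjusted p = 0.589), and Slc51b, a subunit of the basolateral bile acid exporter, at -0.18 (adjusted p = 0.566). Abcc2, an apical export pump, was at 0.77 (adjusted p = 0.532), and the uptake transporter Slc10a2 at -0.09.

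The unfolded protein response list had 3 of 9 lower at that level, namely Xbp1 at -0.28 (adjusted p = 0.473), Dnajb9 at -0.31 (adjusted p = 0.483) and the chaperone Hspa5 at -0.21 (adjusted p = 0.536). Its median was -0.11, and it turned to 0.03 without vehicle replicate 3, the mouse with the highest sum of these genes. The immediate early list had 2 of 10 lower, Jun at -0.36 and Atf3 at -0.51, with a median of -0.20 that moved to -0.06 without vehicle replicate 1. Mt1 and Mt2, the metallothioneins, were at -0.56 and -0.59 in a glucocorticoid-responsive list whose other 5 members had no p under 0.05.

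Among higher members, Ciita, the master activator of MHC class II genes, was at 0.39 (SE 0.11, adjusted p = 0.454). The 7 MHC class II genes had a median of 0.12. Angptl4, an inhibitor of lipoprotein lipase, was at 0.90 (adjusted p = 0.549) and the glucose transporter Slc2a2 at 0.77 (adjusted p = 0.650). The lists for brush border enzymes, goblet cells, Paneth cells, stem cells and the cell cycle had no member with a p under 0.05 in either direction, and their medians lay between -0.04 and 0.04. In the other lists with a member at that level, Cldn15, a tight junction protein, was at 0.21, mt-Nd2 at 0.21, the endothelial adhesion protein Pecam1 at 0.34, Cry2 of the clock at 0.53, the interferon-induced Ifit2 at -0.62 and Acadl, an enzyme of fatty acid oxidation, at -0.27. The Paneth cell median was -0.31 without vehicle replicate 2 and 0.31 without vehicle replicate 3.

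Each dose alone gave the same count. With edgeR 0 genes passed at 0.01, 0.03 and 0.1 µg/kg (0% each), with smallest adjusted p of 0.4119, 0.9726 and 0.2536. At an unadjusted p under 0.05 there were 880 genes (5.54%), 781 (4.91%) and 1270 (7.99%). Those higher and lower than vehicle made up 3.16% and 2.37% of genes at 0.01, 2.32% and 2.59% at 0.03, and 3.86% and 4.13% at 0.1 µg/kg. DESeq2 called 8, 1 and 19. Neither the test of any difference among the 4 groups (0 genes, 814 at an unadjusted p under 0.05, 5.12%, DESeq2 25) nor the test among the 3 low doses (0 genes, 615 at an unadjusted p under 0.05, 3.87%, DESeq2 5) passed a gene. A trend with the rank of the dose passed 0 genes, with 1233 (7.76%; 3.77% upward and 3.99% downward) at an unadjusted p under 0.05, a smallest adjusted p of 0.2447 and 37 calls by DESeq2.

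The baseline profile was that of distal small bowel. In the vehicle mice 13475 genes reached 1 CPM in every mouse, 12880 did so in all 12 mice, and 12204 of 21596 annotated protein-coding genes had a mean of at least 1 TPM. The 20 protein-coding genes of highest mean TPM took 14.4% of the TPM in vehicle mice. A pair of annotated loci that hold ribosomal RNA sequence, Gm42418 and Gm26917, took 8.92% to 13.7% of the TPM by mouse, so protein-coding TPM values are lowered by that share.

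Reg3b, a bactericidal C-type lectin of enterocytes and Paneth cells, headed the list at 32780 ± 10040 TPM (SD, n = 3), and its relative Reg3g stood at 7545 ± 2711 TPM. Fabp6, the ileal bile acid binding protein, reached 11260 ± 1544 TPM, above Fabp2, the fatty acid binding protein of the whole small bowel, at 4832 ± 1017 TPM. Actb followed at 8223 ± 132, the aminopeptidase Anpep at 7567 ± 559 and the apolipoprotein Apoa1 at 6768 ± 1131 TPM. Neighbours in this order, such as Anpep, Reg3g and Apoa1, did not differ beyond their spread.

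**Figure D3:**
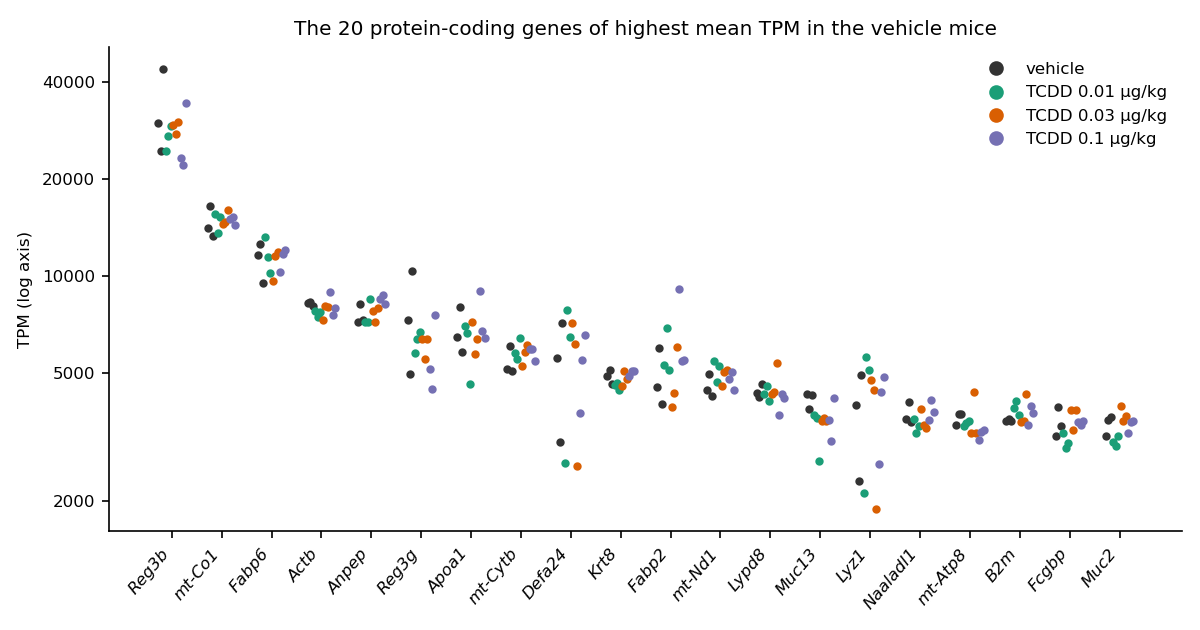
TPM (log axis) of the 20 protein-coding genes with the highest mean in the vehicle mice, 1 point for each of the 12 mice, coloured by vehicle or TCDD dose in µg/kg. Krt8 lies between 4444 and 5128 TPM in all 12 mice, whereas Defa24 spans 2571 to 7838 TPM and Lyz1 1889 to 5597 TPM.

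Mitochondrial transcripts were led by mt-Co1 at 14620 ± 1638 TPM, ahead of mt-Cytb at 5432 ± 554 and mt-Nd1 at 4543 ± 371 TPM, and the mitochondrial genes held 1.83% to 2.19% of reads counted on genes. mt-Co2, mt-Co3 and mt-Nd3 were below 1 TPM, and copies of mitochondrial sequence in the nuclear genome make the counts of this list uncertain. The keratin Krt8 stood at 4889 ± 248 TPM, the adhesion protein Epcam at 2094 ± 80.7 and villin, Vil1, at 2227 ± 232 TPM.

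Bile acid genes are given in the order of their means in the vehicle mice. Fabp6 was highest, then the exporter subunits Slc51b at 1129 ± 24.8 and Slc51a at 466 ± 47.0 TPM, and then Nr1h4 at 282 ± 11.5 and the uptake transporter Slc10a2 at 273 ± 19.7 TPM, which did not differ beyond their spread. Fgf15 was at 59.9 ± 14.1 TPM after the fast. Nr0b2, the FXR target that encodes SHP, was at 0.208 ± 0.216 TPM and failed the filter. For vitamin B12, the receptor cubilin, Cubn, was at 418 ± 135 TPM, its partner Amn at 110 ± 15.5 TPM and the plasma carrier Tcn2 at 404 ± 45.3 TPM.

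Digestive enzymes of the brush border were led by Anpep, with the glucosidase Mgam at 2135 ± 121, the aminopeptidase Enpep at 1864 ± 192 and the metalloprotease Mep1b at 1640 ± 175 TPM. Sucrase-isomaltase, Sis, stood at 1018 ± 211 TPM. Lactase was low, at 12.9 ± 15.9 TPM, with an SD above its mean. The sodium-glucose transporter Slc5a1 was at 1099 ± 97.6 TPM, far above the facilitative transporters Slc2a5 at 24.9 ± 3.08 and Slc2a2 at 4.72 ± 2.53 TPM. Among regional transcription factors Hnf4a led at 843 ± 40.4, followed by Cdx2 at 358 ± 27.0 TPM, and Gata4, the factor of the proximal bowel, was at 7.51 ± 6.25 TPM.

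Secretory lineages were all present. The goblet cell genes Fcgbp and Muc2 stood at 3514 ± 387 and 3482 ± 244 TPM, and Tff3 at 3108 ± 213 TPM. Muc13, on the same list but not particular to goblet cells, was at 4149 ± 250 TPM. Paneth cell products included Defa24 at 5269 ± 2081 and lysozyme, Lyz1, at 3746 ± 1326 TPM, with the caution that alpha-defensin genes are near-identical and reads shared between them may be uncounted. Among hormone genes secretin, Sct, was at 93.4 ± 11.73, neurotensin, Nts, at 82.9 ± 11.9, peptide YY, Pyy, at 49.3 ± 5.96 and proglucagon, Gcg, at 46.0 ± 4.92 TPM. Tuft cell genes were scarce, with Trpm5 at 6.28 ± 1.37 TPM and Il25 at 0.22 ± 0.23 TPM.

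Immune transcripts came with the scraping. Immunoglobulin kappa, Igkc, was at 2783 ± 444 and the IgA heavy chain, Igha, at 1582 ± 245 TPM. Cd74, the MHC class II invariant chain, reached 2831 ± 65.5 TPM, and granzyme A, Gzma, a product of intraepithelial lymphocytes, 362 ± 32.7 TPM. The neutrophil genes S100a8 and S100a9 had no read in the vehicle mice. Proliferation was seen in Mki67 at 72.6 ± 8.14 and the stem cell genes Olfm4 and Lgr5 at 103 ± 17.7 and 4.39 ± 1.10 TPM. In such bulk samples, fewer cells of a type and less RNA per cell cannot be told apart.

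Spread between mice was small for most genes. Among the 8666 genes with a mean of at least 10 CPM, the SD of log2 CPM between mice of the same dose had a median of 0.13, or 1.09-fold, and ran from 0.062 at the 5th percentile to 0.305 at the 95th. An SD under 0.1 was found for 2482 genes (28.6%) and over 0.5 for 129 (1.49%), 13 of them over 1. The median SD within the 3 mice of a group was 0.099 in vehicle, 0.112 at 0.01, 0.119 at 0.03 and 0.111 at 0.1 µg/kg. As a description over the same genes, log2 CPM correlated with a median r of 0.986 in the 12 pairs of mice of 1 dose and 0.987 in the 54 pairs of different doses. Genes share their library, and these r values carry no test.

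The 10 steadiest genes were Gsk3b, Hnrnpc, Mcu, Itfg1, Gnas, Cyfip1, Atp5g3, Ankrd52, Sertad2 and Cbl. Gsk3b, a kinase of the Wnt and insulin pathways, ran from 229.9 to 247 CPM over the 12 mice with an SD of 0.024, and Hnrnpc, an RNA-binding protein, from 80.5 to 87.7 CPM with an SD of 0.027. At the other end the 20 most variable genes were Car3, Gm10800, Gm26870, Fam151a, Lct, Igkv6-23, Gata4, Scd1, Plb1, Nr1d1, Enpp7, Mcpt1, Iglc1, Igkv8-27, G6pc, Pck1, Ighv1-39, B3galt5, Ighv1-55 and Iglv1. The 100 most variable genes held all 10 Defa genes, 11 of 16 immunoglobulin segments and 5 clock genes.

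**Figure D4:**
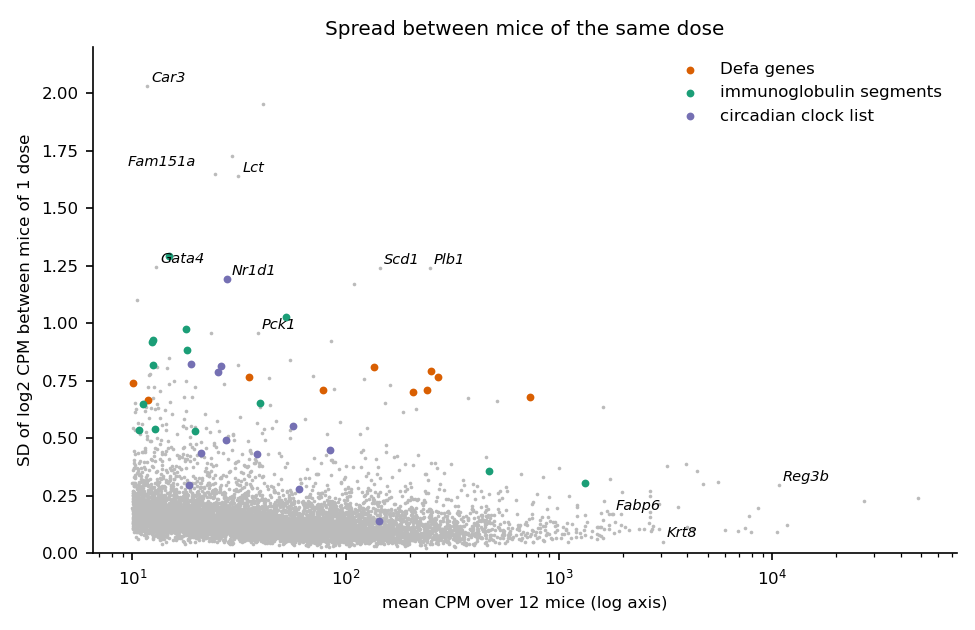
SD of log2 CPM between mice of the same dose against mean CPM over the 12 mice (log axis) for 8666 genes, with Defa genes, immunoglobulin segments and the circadian clock list in colour. Most genes lie near the median SD of 0.13, the Defa genes lie well above it at every level, and Car3 has the largest SD at 2.03.

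Lactase and 4 other genes, grouped after their values were seen, varied together. Lct had 8.10, 61.3 and 7.63 CPM in the vehicle mice, 20.0, 69.5 and 11.99 at 0.01 µg/kg, 13.9, 6.81 and 31.5 at 0.03 µg/kg and 129, 7.86 and 9.67 at 0.1 µg/kg. The 4 highest mice were 0.1 µg/kg replicate 1, 0.01 µg/kg replicate 2, vehicle replicate 2 and 0.03 µg/kg replicate 3, 1 from each group. Gata4, Plb1, a brush border phospholipase, Enpp7, the alkaline sphingomyelinase, and Fam151a had the same 4 mice in the same order at the top.

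Gata4 ran from 2.75 to 40.7 CPM, Enpp7 from 25.6 to 316 CPM and Plb1 from 62.9 to 744 CPM. Their within-dose SD was 1.24, 1.17 and 1.24 and that of Lct 1.64, on the log2 scale. None passed the test, and Lct had a pooled log2 fold change of 0.39 with a 95% interval of -1.43 to 2.203. Fabp1, the liver-type fatty acid binding protein that marks proximal bowel, was also highest in 0.1 µg/kg replicate 1, at 10.2 CPM against 1.98 to 5.67 CPM in the other mice. The distal gene Fabp6 stayed within 1500 to 2246 CPM. Cubn, the ileal vitamin B12 receptor, had its most reads, 34908, in vehicle replicate 2 and its fewest, 21495, in 0.01 µg/kg replicate 2. The transcription factor Onecut2 had 18 and 16 reads in those mice, 29 in 0.03 µg/kg replicate 3 and 26 in 0.1 µg/kg replicate 1. Its highest count, 32, was in vehicle replicate 3, where Lct was low. Fabp1 and Onecut2 were named after their values were seen, and position along the bowel was not tested.

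Paneth cell genes were low in 4 mice. Lyz1 had 1640, 896 and 2073 CPM in the vehicle mice, 948, 2287 and 2095 at 0.01 µg/kg, 1954, 1722 and 768 at 0.03 µg/kg and 1097, 1804 and 1956 at 0.1 µg/kg. Vehicle replicate 2, 0.01 µg/kg replicate 1, 0.03 µg/kg replicate 3 and 0.1 µg/kg replicate 1 were the lowest 4 mice for Lyz1, Ang4, Defa20, Defa21 and Defa32. Defa21 ran from 93.7 to 402 CPM. The 4 low mice again came 1 from each group, and the pooled log2 fold change of Lyz1 was 0.08 (adjusted p = 0.979). Of these mice 3, vehicle replicate 2, 0.03 µg/kg replicate 3 and 0.1 µg/kg replicate 1, were also among the 4 highest for Lct.

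Transcripts of fat cells and muscle also varied between mice. Car3, a carbonic anhydrase of adipocytes, ran from 0.351 to 32.6 CPM and was highest in 0.01 µg/kg replicate 1, vehicle replicate 3 and 0.01 µg/kg replicate 3. Adipoq, which encodes adiponectin, had the same 3 mice on top at 4.23 to 6.31 CPM, and so did the desaturase Scd1 at 211 to 520 CPM. The summed adipocyte list moved with Scd1, a member of the sterol and fatty acid synthesis list, and its part in that result was not tested.

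Smooth muscle genes had the largest list median, 0.70, yet 0 of 9 members had a p under 0.05. Their sum was 129, 30.7 and 51.1 CPM in vehicle mice and 32.0 to 246 CPM (median 97.4) at the low doses. The 3 highest mice were those at 0.01 µg/kg, with 246, 201 and 137 CPM in replicates 2, 3 and 1, just ahead of vehicle replicate 1. By dose the median was 1.53 at 0.01, 0.27 at 0.03 and 0.03 at 0.1 µg/kg, and it was 0.40 without vehicle replicate 2 and 1.52 without vehicle replicate 1. Myh11, smooth muscle myosin, had 57.7, 11.3 and 24.5 CPM in vehicle mice and 14.7 to 104 CPM at the low doses.

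B cell genes were lowest in vehicle replicate 3 and 0.1 µg/kg replicate 3. Bank1, an adaptor of the B cell receptor, had 11.5, 15.8 and 3.53 CPM in vehicle mice, and at 0.1 µg/kg 14.4, 14.7 and 6.00 CPM. Cr2 and Ms4a1 had the same lowest 2 mice. The B and plasma cell list had a median log2 fold change of 0.39 with 0 of 12 members at a p under 0.05, and it was 0.07 without vehicle replicate 3. The plasma cell genes Igha and Jchain did not follow that mouse, with 1190 and 209 CPM there and 919 to 1678 and 151 to 335 CPM over the 12 mice.

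Hormone genes were low in a single mouse, 0.03 µg/kg replicate 1. Nts was at 8.46 CPM there and at 29.0 to 38.9 CPM in the other 11 mice. Gcg was at 4.59 CPM against 14.6 to 24.9, Pyy at 2.61 against 9.39 to 13.9 and Chgb, chromogranin B, at 22.0 against 38.1 to 49.1 CPM. The sum of 12 hormone cell genes was 67.1 CPM in that mouse and 165 to 187 CPM in the others. The list's median log2 fold change of -0.15 became -0.02 without it.

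The circadian clock marked 0.01 µg/kg replicate 3. The clock is a loop in which BMAL1 (Arntl) with CLOCK or NPAS2 drives Per, Cry, Nr1d1, Dbp and Tef. The products of Per, Cry and Nr1d1 repress it in turn. Of 16 clock genes 10 were above all other 11 mice in this mouse, 4 below all, and Clock and Cry2 within their range. Dbp was at 28.2 CPM against 0.353 to 1.70 CPM, Tef at 82.1 against 7.77 to 18.7, Per3 at 33.9 against 4.88 to 7.40 and Nr1d2 at 99.4 against 12.6 to 26.7 CPM. In the opposite direction Arntl was at 16.1 against 56.1 to 66.4 CPM, Npas2 at 32.6 against 71.8 to 109 and Nfil3, a repressor at D-boxes, at 4.57 against 21.9 to 34.5 CPM.

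Nr1d1, which encodes REV-ERBα, needs to be read with and without that mouse. Vehicle mice had 5.38, 11.6 and 2.83 CPM, 0.01 µg/kg replicate 3 had 152 CPM, and the other 8 low-dose mice had 8.75 to 29.1 CPM. The pooled log2 fold change by edgeR was 2.42 (SE 0.83, adjusted p = 0.509) with the mouse and 1.62 (adjusted p = 0.337) without it. DESeq2 gave 1.60 with an adjusted p of 0.0444. That fit replaces outlying counts, and its estimates lay near those of edgeR without this mouse, also for Dbp (0.96) and Per3 (0.06). With edgeR, Dbp went from 2.94 to 0.97 and Per3 from 0.63 to 0.05 when the mouse was left out. The other 2 mice at 0.01 µg/kg did not share the pattern, with Dbp at 1.09 and 1.03 CPM and Arntl at 64.3 and 56.1 CPM. Hours of death are not on the labels, and their part in the pattern was not tested.

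**Figure D5:**
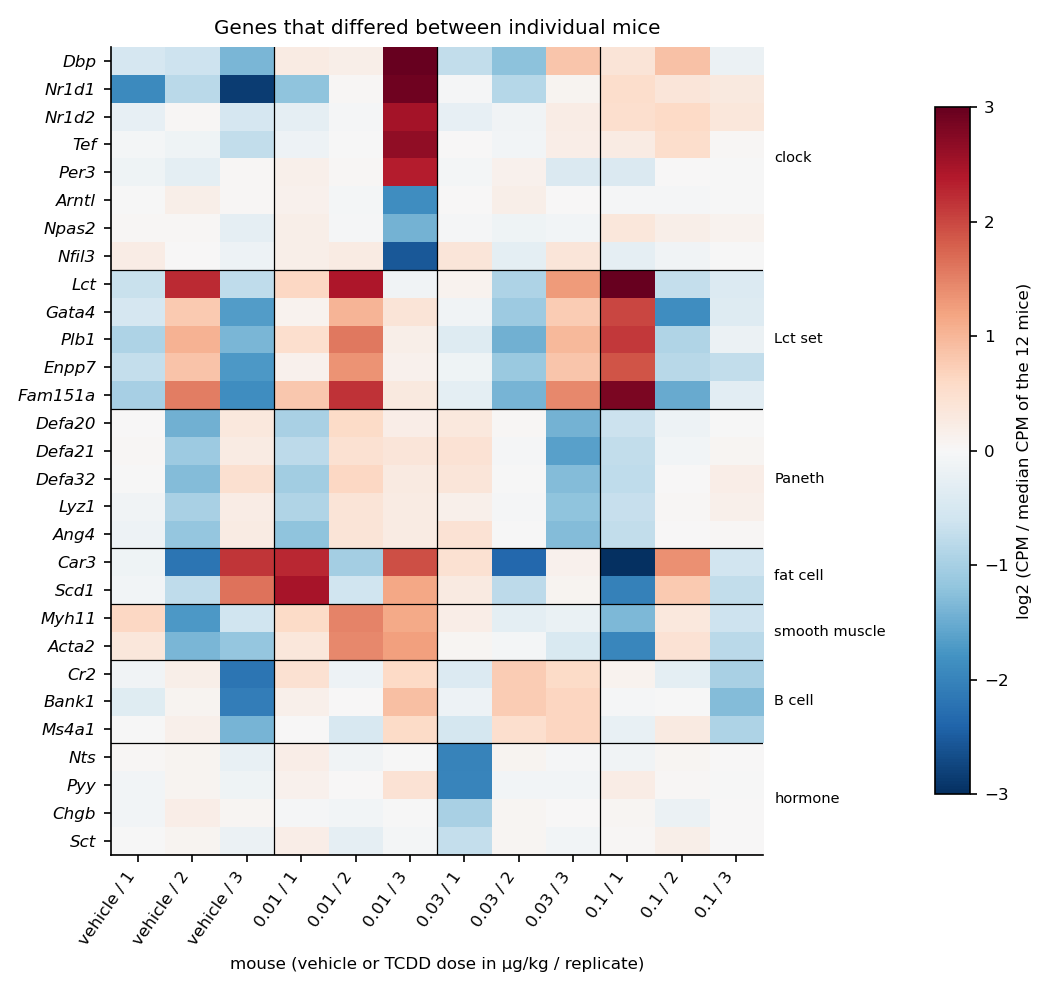
Log2 of CPM over the median CPM of the 12 mice, in colour with a limit of 3 either way, for the genes named beside it (rows, grouped at the right) in each mouse (columns, by vehicle or TCDD dose in µg/kg and replicate). The clock block stands out in 0.01 µg/kg replicate 3, the hormone block in 0.03 µg/kg replicate 1, and the Lct and Paneth blocks each mark 1 mouse or more in every group.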

How the data were processed

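RNA-Seq was done on ileal epithelium with the NuGen Ovation Mouse RNA-Seq kit. Per the study's methods and the submitters' processing notes, reads were trimmed with Trimmomatic 0.33, aligned to GRCm38 with TopHat2 2.1.0 and counted per gene with HTSeq 0.6.1, and the deposited values are raw counts per gene, 1 table per mouse. The counting options, including strand, are not given in the sources used here. Reads shared between near-identical genes may be uncounted, which makes Defa, Reg3, immunoglobulin and mitochondrial values uncertain.

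Rows that name no gene were removed. Genes were filtered with edgeR's filterByExpr, scaled by TMM and tested with edgeR 4.0.16 (R 4.3.3) quasi-likelihood F tests in the 12 mice, with Benjamini-Hochberg adjustment over all 15897 genes. The study's posterior probability could not be recomputed, so the adjusted p was used. DESeq2 1.42.0 and limma 3.58.1, other scalings, filters and sample sets, and leaving out each mouse were the alternatives. TPM used GENCODE M21 exon lengths. The scripts were checked on simulated data. The 3 mice per dose are separate animals, and same-dose pairs differed by 6.994 to 16.15 times sampling noise (chi-square per degree of freedom), so none was counted as a repeat. Named genes were the 6 of smallest p in each direction, the listed pathway genes, and the genes of highest TPM and of largest and smallest spread. Further list members in the text were chosen after their values were seen. A few genes are not reported here. The groups compared and the gene lists were chosen with earlier results of these data known.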

Additional observations from a re-analysis of the deposited data

Results flagged for a closer look

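In the 9 low-dose mice, 208 named genes were examined for a single mouse far from the rest, measured as its gap to the nearest other mouse over the whole range of the 9 and set against Dixon's critical value. Chance alone marks about 1 in 20 genes that were not chosen for their values. These 208 include genes chosen for a large spread between mice or after their values were seen, so the number found cannot be read against that rate, and genes of 1 mouse are not independent. The gap was above that value for 28 genes.

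The mouse 0.01 µg/kg replicate 3 held 10 of them, of which 9 belong to the clock list. The gap was 0.883 for Arntl, 0.774 for Nfil3, 0.739 for Npas2 and 0.62 for Cry1, all low in that mouse. It was 0.788 for Per3, 0.76 for Tef, 0.689 for Dbp, 0.688 for Nr1d2 and 0.581 for Nr1d1, all high. G6pc, glucose-6-phosphatase, was low with a gap of 0.568, at 4.50 CPM against 17.1 to 46.7 CPM.

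The mouse 0.03 µg/kg replicate 1 held 7, all low. Hormone cell genes made up 5 of these, with gaps of 0.862 for Nts, 0.779 for Pyy, 0.77 for Chgb, 0.744 for Gcg and 0.497 for Sct. The sulfotransferase Sult1d1 had 0.596 and C130026I21Rik 0.503.

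The mouse 0.1 µg/kg replicate 1 held 6. Ugt1a6a (0.655), the stromal proteoglycan Dcn (0.605), Igkv6-23 (0.577), the chaperone Hspa8 (0.552) and Mal (0.523) were low, and Fabp1 (0.524) was high.

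The stem cell gene Olfm4 (0.533) and the Wnt regulator Rnf43 (0.57) were low in 0.01 µg/kg replicate 1. Bank1 (0.52) was low and the integrin Itgam (0.54) high in 0.1 µg/kg replicate 3, and the interferon-induced GTPase Gbp2 (0.54) was high in 0.03 µg/kg replicate 3.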

How the results depend on the processing

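The count of 0 genes in each of the 7 edgeR tests held with upper-quartile or library-size scaling, limma on quantile-normalized values, at least 10 counts in every mouse, and, except for the trend, which was not run there, all 27 mice in 1 fit. DESeq2 called 11 genes in the pooled comparison, 8 at 0.01, 1 at 0.03 and 19 at 0.1 µg/kg, 25 among the 4 groups, 5 among the 3 low doses and 37 for the trend. With no filter on low counts edgeR called 7, 98, 66, 130, 318, 121 and 1 in the same order. Leaving out 1 mouse gave 0 to 9 calls in the pooled comparison, 0 to 1 at 0.01, 0 at 0.03, 0 to 7 at 0.1 µg/kg (7 without 0.1 µg/kg replicate 3), 0 to 1 among the 4 groups, 0 to 1 among the 3 low doses and 0 to 6 for the trend (6 without 0.1 µg/kg replicate 3). The cause was not tested. The log2 fold change of Xdh ran from -0.037 to 0.05 and that of Ugt1a6a from -0.013 to 0.179 as single mice were left out, and Xdh was -0.024, -0.001, -0.026 and -0.009 in 4 of these. No paired analysis was possible because the replicate numbers are in accession order only. The number of vehicle mice, 3, limits every comparison with vehicle. Cyp1a1 failed the filter in the 12 mice and rests on 0 to 7 reads per mouse.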
